A study of Rattus norvegicus with 10 samples.

Results

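IGHV5-20 is a variable gene of the rat immunoglobulin heavy chain locus, and its use was followed here in the spleens of 10 immunized rats. Its members were chosen by annotation. A productive sequence belonged to IGHV5-20 when this was the first gene in the annotation of its V segment, which took 115476 of 1615896 productive reads over all animals. The gene itself was picked because it is widely used, so its share of the reads is given as a description and carries no test of its own. Of the rats, 5 (HuD1 to HuD5 below) had been immunized with recombinant human HuD, a neuronal RNA-binding protein, and 5 (DNP1 to DNP5) with keyhole limpet hemocyanin modified with dinitrophenyl (DNP) residues. All 10 were outbred Wistar rats, and both groups received the first injection in complete Freund's adjuvant and 3 boosts in incomplete adjuvant, with no unimmunized animals beside them. The sources used here give neither age nor sex. RNA came from whole spleen cell suspensions, was copied with primers in the constant domain that carried a Unique Molecular Identifier (UMI), and every animal gave 1 library in the same MiSeq run. A read is here 1 deposited sequence, collapsed by its UMI together with a stretch of the CDR3, since the UMI alone had proved too short, and the libraries held 60647 to 259834 productive reads.

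A heavy chain variable domain is assembled in the developing B cell from a V, a D and a J gene segment. The V gene supplies 3 framework regions (FR1 to FR3) and the first pair of complementarity-determining regions, CDR1 and CDR2, while CDR3 spans the joint with D and J and carries most of the diversity. After contact with antigen, somatic mutation adds replacements throughout the domain, and B cells that carry the same CDR3 are commonly treated as a clone. IGHV5 is a large subgroup of closely related genes in the rat, so that the annotation of a mutated read can fit several of them.

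In the files 42.8% of the IGHV5-20 reads (49372 reads) named further IGHV genes as equally good, and 66104 reads named IGHV5-20 alone. Where several genes were named they always stood in the order of their names, so that a tie of IGHV5-20 with IGHV5-22, IGHV5-25, IGHV5-27, IGHV5-29 or IGHV5-7 was counted as IGHV5-20. A tie with a gene that sorts before it went the other way, which concerned 395 reads. IGHV5-25 was the most frequent partner (19006 reads, 16.5% of all IGHV5-20 reads), followed by IGHV5-29 with 13748 reads, IGHV5-22 with 7477, IGHV5-7 with 4246 and IGHV5-27 with 3190. Ties were thus a large part of this gene's reads, against 14.1% of all productive reads. This was not particular to IGHV5-20. The tied part was higher in IGHV5-25 (46.97%), IGHV2-15 (61.7%) and IGHV2S12 (69.9%), and lower in IGHV5-22 (8.14%) and IGHV5-7.

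The residues of the gene and of those tied with it are shown next, because they differ at few positions. The most frequent residue of each IMGT position (the common numbering of variable domains) was taken over the distinct CDR3s of each animal, with equal weight per animal. All reads and the reads naming IGHV5-20 alone gave the same residue at each of 96 positions. The 5 partner genes, taken from reads that named 1 gene, differed from it at 4 or 5 of these positions. Their CDR1 and CDR2 read as follows.
IGHV5-20 CDR1: GFTFSDYY
IGHV5-20 CDR2: ISYDGGST
IGHV5-25 CDR1: GFTFSNYY
IGHV5-25 CDR2: ISTGGGNT
IGHV5-29 CDR1: GFTFSNYG
IGHV5-29 CDR2: ISYDGSST
IGHV5-22 CDR1: GFTFSDYY
IGHV5-22 CDR2: ISYEGSST
IGHV5-7 CDR1: GFTFSDYN
IGHV5-7 CDR2: ISYDGSST
IGHV5-27 CDR1: GFTFSNYY
IGHV5-27 CDR2: ISTGGGST
Written with the IGHV5-20 residue first, the IMGT position and then the residue of the other gene, IGHV5-25 differed by L19M, D36N, Y58T, D59G and S64N, and IGHV5-29 by D36N, Y38G, S55T and G63S. IGHV5-22 differed by T47K, D59E, G63S, R68G and D92N, IGHV5-7 by Y38N, T47K, S55T and G63S, and IGHV5-27 by D36N, S55Y, Y58T and D59G. Tied reads carried part of the partner's residues. Of the reads that named both IGHV5-20 and IGHV5-22, 77.5% had D92N and 50.5% R68G, against 15.8% and 13.4% of the reads naming IGHV5-20 alone. S55T was found in 75.2% of the reads shared with IGHV5-29, against 6.94% of the reads naming IGHV5-20 alone. D36N was found in 63.0% of the reads shared with IGHV5-25, against 8.74% of the reads naming IGHV5-20 alone. Other partner residues were not enriched. Reads shared with IGHV5-22 had T47K in 4.92% and G63S in 8.96%, against 6.13% and 9.38% of the reads naming IGHV5-20 alone. Y38G was in 5.83% of the reads shared with IGHV5-29, against 9.78%, and S64N in 11.1% of those shared with IGHV5-25, against 10.3%. The annotation itself rests on such residues, so these values only describe the ties. No germline sequence of IGHV5-20 was used here, so the residues printed for each gene are the most frequent ones in 10 immunized rats and not a germline.

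IGHV5-20 took 7.35% ± 2.11 (SD, n = 10 animals) of the productive reads. It held 6.22% of the reads in HuD1, 6.43% in HuD2, 6.48% in HuD3, 9.43% in HuD4 and 5.76% in HuD5. From DNP1 to DNP5 its shares were 9.78%, 4.21%, 11.1%, 7.50% and 6.62%. DNP3 was highest and DNP2 lowest, the HuD values lay inside the DNP range, and HuD4 stood apart from the other HuD animals. The widest Wilson 95% interval was that of DNP3, 10.8% to 11.3%, so that counting error was small beside the spread between animals. HuD3 and HuD2 (6.36% to 6.60% and 6.33% to 6.53%) were neighbours that counting error does not separate. Such intervals cover counting error only. A larger share of transcripts can come from more cells or from more RNA per cell, which these bulk libraries cannot tell apart. Among 141 IGHV genes with reads IGHV5-20 had mean share number 4, after IGHV5-25 (9.27% ± 4.34), IGHV5-22 (9.22% ± 10.4) and IGHV5-31 (8.47% ± 3.21) and before IGHV3-1 (7.22% ± 5.33) and IGHV5-7 (7.04% ± 2.13; SD, n = 10 each). Each of these means lay within 1 SD of IGHV5-20 (2.11) of its own mean.

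**Figure D1:**
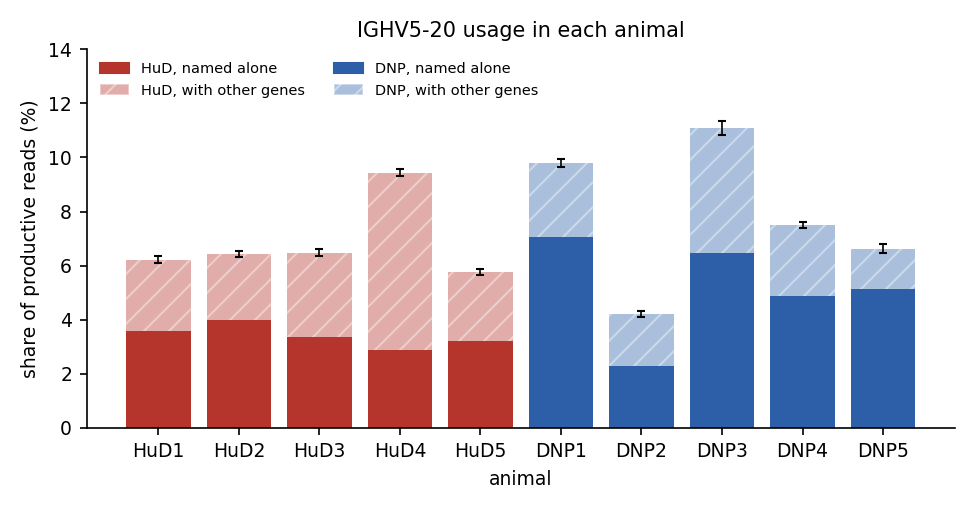
Share of productive reads annotated as IGHV5-20 in each animal (percent, vertical axis), with the 5 HuD animals in red left of the 5 DNP animals in blue. Solid bars are reads naming IGHV5-20 alone, hatched bars reads that name further genes, and black whiskers Wilson 95% intervals; HuD4 has the largest hatched part (69.5% of its IGHV5-20 reads) and DNP3 the highest total (11.1%).

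Counting only the reads that name IGHV5-20 alone lowered its mean share to 4.28% ± 1.57 (SD, n = 10), number 7 when every gene is counted in that way. The part of its reads that named further genes was 42.7% in HuD1, 38.1% in HuD2, 48.0% in HuD3, 69.5% in HuD4 and 44.0% in HuD5. From DNP1 to DNP5 it was 28.0%, 45.8%, 41.5%, 35% and 22.4%. With ties left out HuD4 had 2.88%, the lowest HuD share, and the other HuD animals 3.22% to 3.98%. DNP animals then had 2.28% to 7.04%.

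The comparison of usage between the antigens asked which IGHV genes were used differently after HuD and after DNP immunization. IGHV5-20 averaged 6.86% ± 1.46 of the reads in the HuD animals and 7.84% ± 2.70 in the DNP animals (SD, n = 5 each). The difference was −0.45 on the log2 scale (HuD over DNP) with an adjusted p of 0.559 in edgeR's quasi-likelihood test, and was thus within the spread between animals. At an adjusted p under 0.05 the test called 2.47% of the 81 genes with at least 100 reads, 2 genes, both lower after HuD. One of the 24 IGHV5 genes tested was among them, IGHV5S11 (−4.68, adjusted p = 0.0237 in the same edgeR test), and this call was lost without HuD1, HuD4 or HuD5, when no gene was called. The balance of directions turned in other fits, with 9 genes higher and 5 lower after HuD in DESeq2, 13 higher and 3 lower in limma, and 19 higher and 11 lower in edgeR without DNP2. IGHV5-20 was not called in any of these fits. The median difference was 0.09 over the IGHV5 genes and 0.13 over all 81 genes, so that IGHV5-20 lay below both medians. With reads naming 1 IGHV gene the difference of IGHV5-20 was −0.84 (adjusted p = 0.289 in edgeR). It changed sign with the authors' copy numbers (0.29, adjusted p = 0.757 in edgeR), which is the number of sequenced copies behind each read.

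The genes most like IGHV5-20 in usage were looked for within its subgroup, as the smallest mean absolute difference of log2(RPM + 10), RPM being reads scaled to an equal library size, over the 10 animals. They were IGHV5-7 (0.50), IGHV5-22 (0.65) and IGHV5-25 (0.73). IGHV5-7 held 3.89% to 10.05% of the reads of an animal, IGHV5-22 2.93% to 37.7% and IGHV5-25 2.76% to 17.6%. IGHV5-22 was highest in DNP3, the animal in which IGHV5-20 was also highest. Giving every read the gene that most reads of its CDR3 have in the same animal put IGHV5-20 in DNP3 at 5.78%, inside the range of the other DNP animals (3.8% to 8.31%). Over all animals its mean share was then 6.22% ± 1.32 (SD, n = 10), and the difference between the antigens was 0.03 on the log2 scale (adjusted p = 0.936 in edgeR). This way to assign genes was chosen after seeing the data.

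The clones of IGHV5-20 were described by their CDR3 at the amino acid level. An animal had 1495 to 5408 distinct CDR3s, of which 64.5% to 80.4% rested on a single read. At an equal 5209 reads per animal, 1150 to 2409 distinct CDR3s would remain in the HuD animals and 1268 to 2207 in the DNP animals. Abundance was very uneven, since the 10 most abundant CDR3s held 22.5% ± 7.43 of the reads of an animal and the 100 most abundant 53.8% ± 10.1 (SD, n = 10 each). The number of CDR3s needed to hold 50% of the reads was 27 in HuD1, 235 in HuD2, 80 in HuD3, 51 in HuD4 and 101 in HuD5, and 64, 161, 48, 161 and 45 from DNP1 to DNP5.

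**Figure D2:**
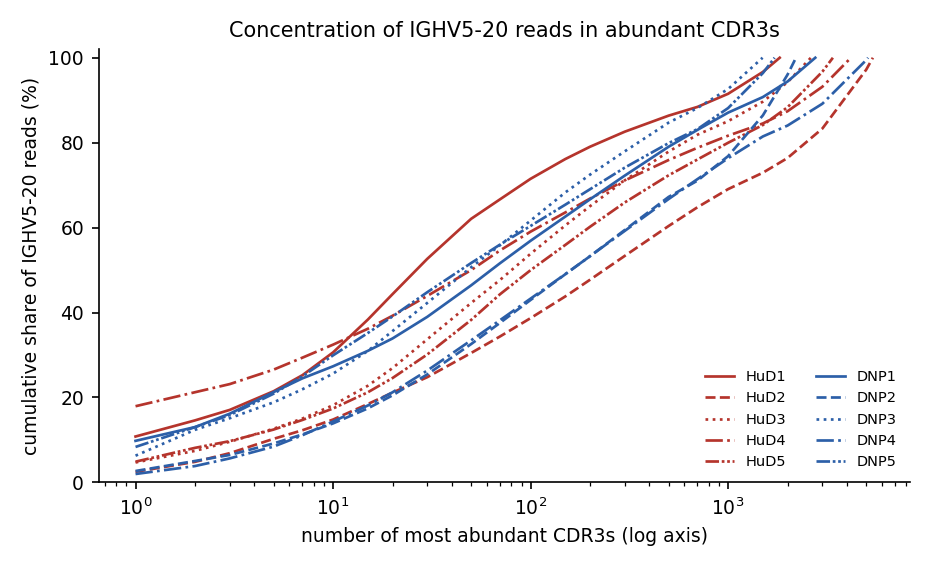
Cumulative share of IGHV5-20 reads (percent, vertical axis) held by the most abundant CDR3s, whose number is on the logarithmic horizontal axis, with 1 line per animal (HuD red, DNP blue). HuD4 starts highest, with 17.9% of its reads in 1 CDR3, and HuD2 has the flattest curve, with 38.7% in 100 CDR3s.

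Concentration was measured as the probability that a pair of reads of an animal has the same CDR3 (Simpson's index without bias, tested as log10). It was 1.97% in HuD1, 0.356% in HuD2, 0.653% in HuD3, 3.61% in HuD4 and 0.614% in HuD5. The DNP animals had 1.51%, 0.353%, 1.22%, 0.351% and 1.45% from DNP1 to DNP5. The groups overlapped throughout, with a mean difference of 0.10 on the log10 scale (two-sided exact permutation test over 252 sets of 5 animals, p = 0.651), and without HuD4 the difference was −0.04. Against the 3 genes most like it in usage, IGHV5-20 was less concentrated than IGHV5-22 in 9 of 10 animals, by 0.34 ± 0.30 on the log10 scale (SD; exact sign-flip permutation test, adjusted p = 0.0117 over 3 genes). That call was lost when only reads naming IGHV5-20 alone were used (−0.31, adjusted p = 0.111) and under the gene of most reads of a CDR3 (−0.17, adjusted p = 0.214, both exact). It did not differ beyond the spread from IGHV5-7 (−0.12 ± 0.35, adjusted p = 0.314) or IGHV5-25 (0.14 ± 0.24, adjusted p = 0.149, same exact test).

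The most abundant CDR3s of 8 animals are printed here, to show what an IGHV5-20 clone looks like in each repertoire. Those of HuD3 (12 residues, IGHJ4) and DNP2 (15 residues, IGHJ4) are not spelled out.
HuD1: VKDLDYSGDNWFGY
HuD2: TTGYYDGYYLVFDY
HuD4: ARHGYNSYFDY
HuD5: TTYSDYATSPFAY
DNP1: TTWMHA
DNP3: ARPMDYYSGGFAY
DNP4: TSPVPSGHYVMDA
DNP5: TTLITFMSG
Their shares of the IGHV5-20 reads were 10.8% in HuD1 (1051 reads), 2.50% in HuD2 (361), 4.70% in HuD3 (512), 17.9% in HuD4 (3116) and 4.89% in HuD5 (584). From DNP1 to DNP5 they were 9.79% (1336 reads), 2.69% (140), 6.30% (423), 1.99% (387) and 8.36% (507). Each of the 10 was joined to 1 IGHJ gene in 96.7% to 100% of its reads. Of these, 5 were found in no other animal under any IGHV gene, and of the other 5 none had more than 3 reads in another animal.

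These leading clones fell into 2 kinds by their annotation. In 6 of them, those of HuD1, HuD2, HuD3, DNP1, DNP4 and DNP5, under 10% of the reads were tied, and IGHV5-20 was the gene of 62.3% to 89.0% of all reads with that CDR3 in the animal. In the other 4, those of HuD4, HuD5, DNP2 and DNP3, 52.1% to 94.6% of the reads were tied. ARHGYNSYFDY of HuD4 had 230 reads naming IGHV5-20 alone and 2745 that also named IGHV5-29, and IGHV5-20 held 51.4% of the 6061 reads of this CDR3 in HuD4. Its IGHV5-20 reads rested on 19.5 sequenced copies each, against 1.63 for the reads of all other IGHV genes in HuD4. TTYSDYATSPFAY of HuD5 was led by IGHV5-25, which held 46.9% of its 2489 reads, and IGHV5-20 held 23.5%. ARPMDYYSGGFAY of DNP3 was led by IGHV5-22 with 53.5% of 1035 reads, and the leading CDR3 of DNP2 by IGHV5-7 with 63.9% of 1734 reads. Each of the 10 CDR3s was found under 11 to 30 first-named IGHV genes in its own animal.

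Reads of one CDR3 under several IGHV genes were common in general. Of the 30734 combinations of an animal and an IGHV5-20 CDR3, 46.4% also occurred in the same animal under another IGHV gene, and these held 98176 reads, 85.0% of the IGHV5-20 reads. The share of reads was 75.4% to 90.1% in single animals. It was similar in the genes most like it, with means of 85.7% ± 3.49 for IGHV5-7, 88.4% ± 3.53 for IGHV5-22 and 84.8% ± 3.67 for IGHV5-25, against 84.7% ± 4.78 for IGHV5-20 (SD, n = 10 each). IGHV5-20 was the gene of most reads of the CDR3 for 58.5% ± 12.1 of its reads, from 39.3% in DNP3 to 83.3% in HuD1. Whether amplification joined the V part of one molecule to the CDR3 of another was not tested, and such joined molecules would count here as IGHV5-20 clones.

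Related CDR3s were also counted, joining those of equal length and the same IGHJ gene that differ by a single residue. Such families with 2 or more CDR3s held 52.3% to 76.2% of the reads of an animal. The largest by reads was led by ARHGYNSYFDY in HuD4, with 45 CDR3s and 3320 reads (19.1% of its IGHV5-20 reads). In HuD1 the family led by VKDLDYSGDNWFGY had 33 CDR3s and 1554 reads (16%), among them AKDLDYSGDNWFGY with 369 reads, whose first residue differs. In DNP5 the family of TTLITFMSG had 17 CDR3s and 741 reads (12.2%), and in DNP1 that of TTWMHA had 14 CDR3s and 1407 reads (10.3%).

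The first residues of the CDR3 lie at the end of the V gene, so that the annotation reads them too, and they are given as a description. The CDR3 began with threonine-threonine (TT) in 28.8% ± 10.2 of its reads, against 5.38% ± 1.84 of the reads of all other IGHV genes (SD, n = 10 animals each). The TT share of IGHV5-20 was higher in 10 of 10 animals, by 23.4 ± 8.99 percentage points (SD), a comparison chosen after its values were seen and given with no test. The difference had the same direction when each distinct CDR3 counted once, with 20.7% ± 7.71 for IGHV5-20 against 6.12% ± 1.10 for the other genes, and it was larger among reads naming IGHV5-20 alone, of which 33.6% ± 8.51 began with TT, against 21.9% ± 14.6 of the tied reads. Among 12 IGHV5 genes with at least 100 reads in every animal, only IGHV5-27 had a higher mean, 31.8% ± 21.0, and the next gene, IGHV5S23, had 13.9% ± 4.31. HuD animals had TT in 32.5% ± 9.13 and DNP animals in 25% ± 10.8 of the IGHV5-20 reads (SD, n = 5 each), a difference within the spread (two-sided exact permutation test, p = 0.270). Of the 10 leading CDR3s, 5 began with TT. CDR3s with this start had 10.8 ± 1.12 residues per read (SD, n = 10), and 68.3% of their reads named IGHV5-20 alone.

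**Figure D3:**
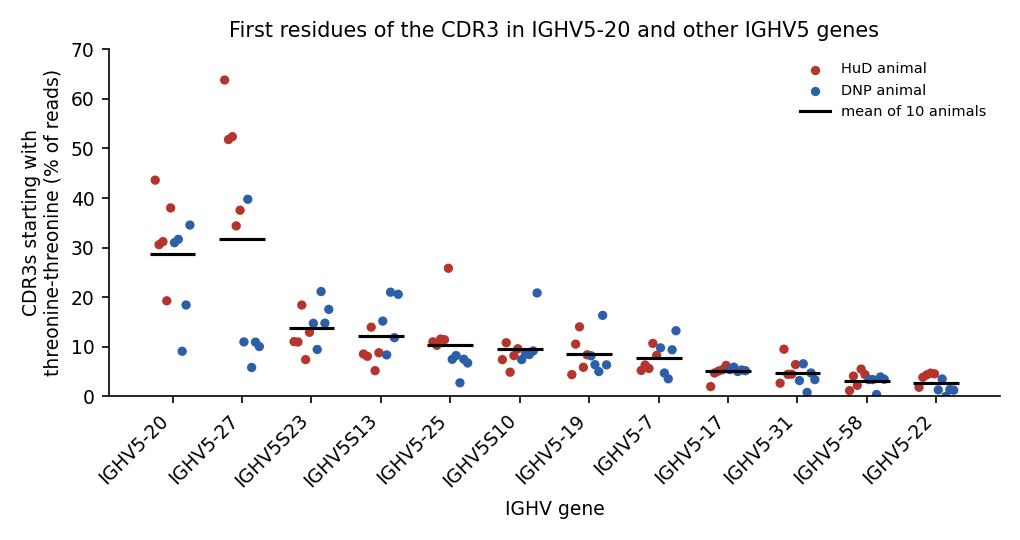
Share of reads whose CDR3 starts with threonine-threonine (percent, vertical axis) in IGHV5-20 and in 11 other IGHV5 genes with at least 100 reads in every animal, with a point per animal (HuD red, DNP blue) and a black line at the mean. IGHV5-20 (mean 28.8%) and IGHV5-27 (mean 31.8%) lie above the other genes, whose means are 13.9% or lower.

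CDR3 length in IGHV5-20 averaged 11.6 ± 0.56 residues per read, against 11.8 ± 0.42 in all other IGHV genes (SD, n = 10 animals). The difference of −0.18 ± 0.34 residues was within the spread between animals (exact sign-flip permutation test, p = 0.129). It passed the threshold when each distinct CDR3 counted once (−0.16 residues, exact p = 0.0156). Lengths ran from 2 to 55 residues, 13 residues was the most frequent length with 15.5% of the reads on average, and 14.8% ± 5.68 of the reads had up to 8 residues. HuD animals averaged 11.3, 12, 11.7, 11.8 and 12.5 residues, and DNP animals 10.7, 11.9, 11.9, 11.8 and 10.8. DNP1 and DNP5, led by the short CDR3s TTWMHA and TTLITFMSG, were lowest, and the difference of 0.45 residues was within the spread (two-sided exact permutation test, p = 0.238). The net charge of the CDR3 (lysine and arginine minus aspartate and glutamate) was −0.35 ± 0.18 in IGHV5-20 and −0.11 ± 0.07 in the other genes (SD, n = 10), and tryptophan was found in 32.5% ± 7.97 against 36.9% ± 10.4 of the reads. Neither was tested.

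IGHV5-20 was joined to all 4 IGHJ genes. IGHJ2 took 51.3% ± 6.98 of its reads, IGHJ3 26.1% ± 6.79, IGHJ4 14.4% ± 7.17 and IGHJ1 8.27% ± 3.79 (SD, n = 10 animals). In the other IGHV genes these shares were 55% ± 4.25, 23.8% ± 2.59, 12.2% ± 4.30 and 8.98% ± 2.22. The differences of −3.76, 2.28, 2.19 and −0.71 percentage points were within the spread between animals (exact sign-flip permutation tests, adjusted p over 4 genes 0.271, 0.271, 0.271 and 0.502). With each distinct CDR3 counted once, IGHJ1 was lower in IGHV5-20 by 0.75 percentage points (adjusted exact p = 0.0312), and the differences of IGHJ2 and IGHJ3 changed sign.

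The highest share of each IGHJ gene was in an animal with a large CDR3 or CDR3 family joined to it, though a high share also occurred without one. IGHJ2 was highest in HuD4 (64.0%), whose leading CDR3 is joined to it. HuD2 had nearly as much IGHJ2 (61.3%), and its leading CDR3 held only 2.50% of its reads. IGHJ3 was highest in HuD1 (37.6%), led by VKDLDYSGDNWFGY with IGHJ3. Whether clone size sets these shares was not tested. IGHJ4 took 23.8% in DNP1 and 27.1% in DNP5, whose leading CDR3s are joined to IGHJ4, and 5.70% to 21.3% in the HuD animals. IGHJ1 took 17.9% in DNP3, where a family led by ARWSSSHWYFDF with IGHJ1 held 671 reads (9.99%). The leading CDR3 of that family was mainly read under another gene, since IGHV5-22 held 86.95% of its 1901 reads in DNP3. Of its 184 reads counted here, 80.4% were tied. HuD animals averaged 52.3% ± 9.86 IGHJ2, 28.3% ± 7.71 IGHJ3, 12.4% ± 5.62 IGHJ4 and 7.01% ± 2.37 IGHJ1, and DNP animals 50.2% ± 3.09, 23.9% ± 5.69, 16.4% ± 8.61 and 9.54% ± 4.77 (SD, n = 5 each). None of the 4 differences passed the test (two-sided exact permutation tests, adjusted p 0.643, 0.519, 0.519 and 0.519). The IGHJ2 difference of 2.15 percentage points had the other sign without HuD2 or without HuD4.

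An IGHV5-20 read differed from the most frequent residues of the gene at 6.89 ± 0.83 of the 96 positions of FR1 to FR3 (SD, n = 10 animals), and 0.326% ± 0.267 of the reads matched at every one. Reads naming IGHV5-20 alone had 6.16 ± 0.89 such differences and tied reads 8.0 ± 1.23. Such differences, called replaced residues here, were denser in the CDRs. A residue that belongs to a partner gene also counts as replaced, and several positions where the partners differ lie in CDR1 and CDR2. In CDR1 and CDR2 together 16.7% ± 1.64 of the residues were replaced, against 5.27% ± 1.12 in the frameworks, which was higher in 10 of 10 animals (difference 11.4 ± 2.31 percentage points, exact sign-flip permutation test, p = 0.00195). The difference was 8.64 percentage points among reads naming IGHV5-20 alone and 14.8 with the gene of most reads of a CDR3 (same exact test, p = 0.00195 each). How much of it comes from partner residues was not tested. Residue 64, in CDR2, was the most variable, with serine in 53.7% ± 13.5 of the reads, arginine in 11.3% (S64R) and asparagine in 10.7% (S64N). Of the 96 positions, 60 kept their residue in over 95% of the reads and 6 in under 70%.

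**Figure D4:**
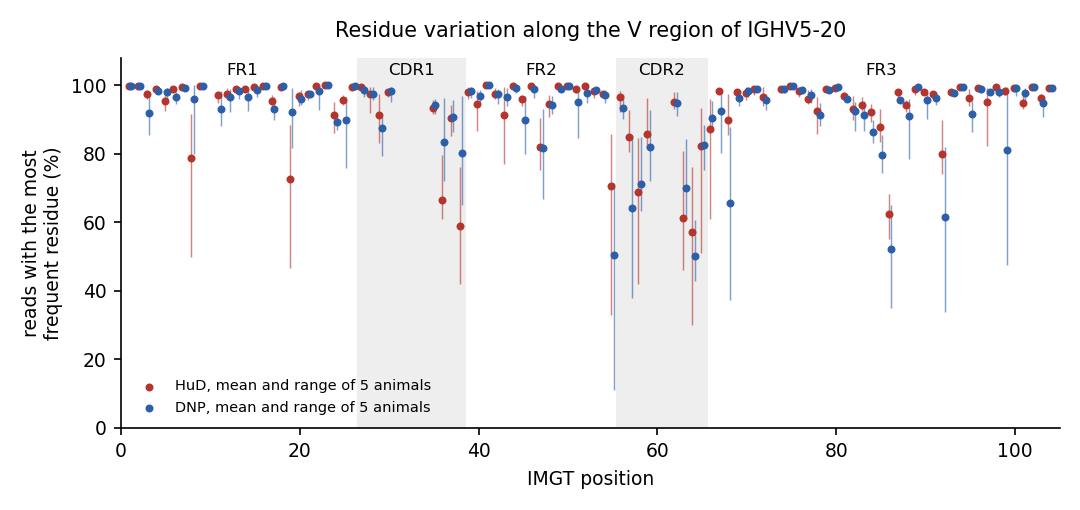
Share of IGHV5-20 reads with the most frequent residue (percent, vertical axis) at each IMGT position from FR1 to FR3, with the mean (point) and range (line) of the 5 HuD animals in red and of the 5 DNP animals in blue, and the CDRs shaded. The lowest means are at position 64 in CDR2 (53.7% over all animals) and position 86 in FR3 (57.3%).

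The other variable positions lay in and around the CDRs and in FR3. They were 86 (threonine in 57.3% ± 10.5, T86S in 35.4%), 55 (serine in 60.4% ± 24.2, S55Y in 22.3% and S55T in 14.1%), 63 (glycine in 65.6% ± 11.2, G63S in 15.2%) and 38 (tyrosine in 69.6% ± 15.8, Y38D in 11.3% and Y38G in 9.57%). They continued with 58 (tyrosine in 69.97% ± 11.9, Y58S in 11.9%), 92 (aspartate in 70.7% ± 16.1, D92N in 19.98%), 57 (serine in 74.5% ± 16.6, S57T in 8.38%), 36 (aspartate in 74.9% ± 11.8, D36N in 19.6%) and 68 (arginine in 77.6% ± 18.4, R68G in 13.6%; SD, n = 10 each). At 36, 38, 55, 58, 63, 64, 68 and 92 IGHV5-20 differs from 1 or more of its 5 partner genes, and for 36, 55, 63, 68 and 92 the second residue is that of a partner.

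HuD animals had 5.67, 5.88, 6.46, 7.01 and 6.70 replaced residues per IGHV5-20 read and DNP animals 7.2, 6.38, 8.26, 7.76 and 7.54. All DNP animals except DNP2 lay above all HuD animals. The means of 6.34 ± 0.56 and 7.43 ± 0.70 (SD, n = 5 each) differed by −1.08 (two-sided exact permutation test, p = 0.0397). The difference was −1.24 (exact p = 0.0159) among reads naming IGHV5-20 alone. It kept its direction but no longer passed the threshold in 7 of the 10 fits that leave out 1 animal, with exact p of 0.0556 to 0.0714 without HuD1, HuD2, HuD3, DNP1, DNP3, DNP4 or DNP5 and differences of −1.14 to −0.88. The share of tied reads, which have more replaced residues, was lower in the DNP animals, at 48.4% ± 12.3 for HuD and 34.5% ± 9.54 for DNP.

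No single position passed the test between the antigens. The smallest p of this design is 0.00794, so that at least 16 of the 96 positions would have to reach it together for a call. By the exact permutation test 17 positions had an unadjusted p under 0.05 (lowest adjusted p 0.238), and the adjusted test called 0 positions. The arginine at 68 was kept in 89.7% ± 4.92 of reads after HuD and 65.6% ± 19.3 after DNP, and the serine at 57 in 84.9% ± 5.66 after HuD and 64.2% ± 17.9 after DNP. The tyrosine at 38 was kept in 59.0% ± 12.2 of reads after HuD and 80.1% ± 11.5 after DNP (SD, n = 5 each). All 3 have an adjusted exact p of 0.238.

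Whole CDRs show the same variation. ISYDGGST made up 19.1% ± 7.66 of the CDR2s, from 9.96% in DNP3 to 31.6% in HuD1, and GFTFSDYY 47.3% ± 12.7 of the CDR1s, from 26.3% in HuD1 to 64.6% in HuD4 (SD, n = 10). ISYDGSST, which is the CDR2 of IGHV5-29 and IGHV5-7, was second with 6660 reads and was found in 10 animals. A pair of further CDR2s was abundant in a single animal. ISSDGGRN was found in 6143 reads of HuD4, 35.4% of its IGHV5-20 reads, and in no IGHV5-20 read of another animal. IGSDGYAP was found in 1426 reads of DNP1 (10.5%), and in no read of another animal under any gene. Neither was particular to IGHV5-20. Under all IGHV genes ISSDGGRN had 7952 reads in HuD4, spread over 14 first-named genes, and 3 reads in 1 other animal. IGSDGYAP had 4292 reads in DNP1, spread over 15 first-named genes.

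Both of these CDR2s were joined to very many CDR3s. ISSDGGRN stood beside 1513 distinct CDR3s of 19 different lengths in HuD4, 58 of them with 10 or more such reads. ARHGYNSYFDY accounted for 40.1% of its reads and ARRHYGYTDYFDY, the second, for 112 reads, and the rest was spread over all 4 IGHJ genes. IGSDGYAP stood beside 745 distinct CDR3s in DNP1, with no more than 30 reads of any of them. Its reads were 52.2% IGHJ2, 23.0% IGHJ3, 16.5% IGHJ4 and 8.35% IGHJ1. Its reads rested on 1.05 sequenced copies each and those of ISSDGGRN on 9.87. Tied annotation was found for 88.6% of the ISSDGGRN reads and 84.4% of the IGSDGYAP reads. Both CDR2s were singled out after their values were seen, and whether these combinations were joined during PCR was not tested.

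The last comparison asked whether animals immunized with the same antigen share more of their IGHV5-20 CDR3s. Nearly all CDR3s were private. Of 30263 distinct CDR3s, 29898 (98.8%) were found in 1 animal, 293 in 2, 46 in 3, 20 in 4, 5 in 5 and 1 in 7 animals. The 365 CDR3s found in 2 or more animals held 8.14% of the pooled reads, and 136 of them were found with both antigens. Their share of the reads ran from 3.44% (HuD2) to 5.04% (HuD4) in the HuD animals. In the DNP animals it ran from 5.99% (DNP2) to 22.4% (DNP3). The shared CDR3s were short, with 8.81 ± 2.77 residues against 12.1 ± 2.98 for the private ones (SD over CDR3s), and shorter in each of the 10 animals, with differences of −4.12 to −2.55 residues.

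The overlap of a pair of animals was taken as the geometric mean of the shares of their IGHV5-20 reads that lie in common CDR3s. It had a median of 1.40% in the 10 HuD pairs (range 0.903% to 2.86%), of 2.27% in the 10 DNP pairs (0.723% to 13.7%) and of 0.160% in the 25 pairs of a HuD with a DNP animal (0.0165% to 1.07%). The highest value was that of DNP3 and DNP4, with 42 CDR3s in common. As −log10 of the overlap, the mean distance was 2.76 between the antigens and 1.74 within them, a difference of 1.02 (one-sided exact permutation test over 126 divisions into 5 and 5, p = 0.00794, the smallest value possible). With CDR3s of at least 2 reads it was 3.15, a size that cannot be compared with the others. A pair without a common CDR3 enters with the small added constant alone, and such pairs were not counted in that setting. The difference was 1.36 with reads naming IGHV5-20 alone and 1.63 with the gene of most reads of a CDR3. It was 0.89 to 1.20 without any 1 animal. In all these settings the difference kept its direction and had the smallest p. Earlier results of these data had this direction over all IGHV genes together, so it is no independent result for IGHV5-20. All animals were littermates that, by the study's text, were handled alike apart from the immunogen.

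**Figure D5:**
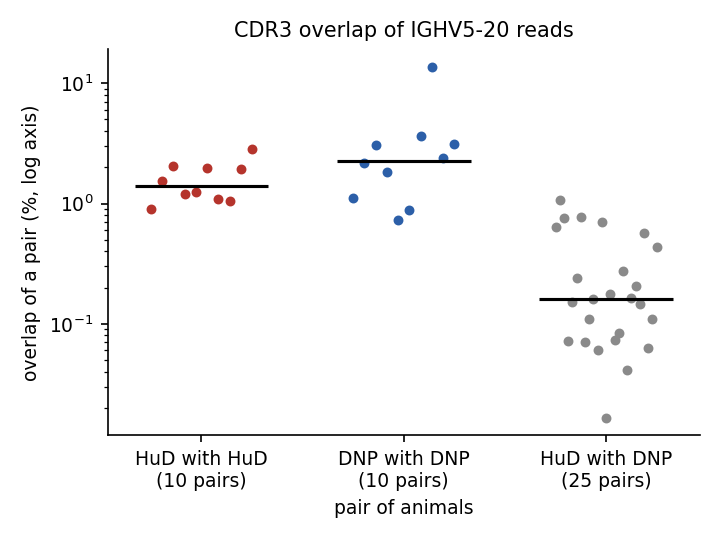
Overlap of the IGHV5-20 CDR3s of each pair of animals (percent, logarithmic vertical axis), with a point per pair and a black line at the median, for 10 HuD pairs (red), 10 DNP pairs (blue) and 25 mixed pairs (grey). The medians are 1.40%, 2.27% and 0.160%, and 16 of the 20 pairs with the same antigen lie above every mixed pair.

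The CDR3s found in most animals were few and are printed with their reads. TTGDY was in 7 animals, with 1 to 4 reads in each of the 5 HuD animals and 1 read in DNP1 and DNP5. TTDAAY was found in the 5 DNP animals and in no HuD animal, with 14, 1, 60, 352 and 5 reads from DNP1 to DNP5. TTGRDY was found in the 5 HuD animals, with 66, 16, 14, 1 and 4 reads from HuD1 to HuD5, and in no DNP animal. Both began with TT and named IGHV5-20 alone in most reads (395 of 432 and 97 of 101), and neither occurred with the other antigen under any IGHV gene. A count of 0 allows up to 0.00466% of the 64360 IGHV5-20 reads of the HuD animals (3 counts over the group). For the 51116 reads of the DNP animals it allows up to 0.00587%. Such limits cover counting error over pooled reads only. They leave out the spread between the 5 animals of a group, which was wide for TTDAAY (1 to 352 reads). TTWFAY, with 29 reads in HuD5, 9 in HuD4, 3 in HuD2 and 1 in HuD3, and ARHNSGYFDY, with 1 to 6 reads in 4 HuD animals, each had 1 read in a DNP animal. Under any IGHV gene ARHNSGYFDY was found in 5 HuD and 4 DNP animals, and TTWFAY in 4 HuD and 2 DNP animals. TTGDY was then found in all 10 animals.

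Among the CDR3s that 2 or more animals shared within an antigen and that the other antigen lacked, 117 belonged to the HuD and 112 to the DNP animals. The log2 ratio of these numbers was 0.06 (two-sided exact permutation test, p = 0.913). This ratio compares the antigens with each other only. The numbers were not set beside those of mixed groups of animals or of all IGHV genes together. They therefore do not show whether such sharing is more than any group or gene would give. With CDR3s of at least 2 reads the numbers were 51 for HuD and 31 for DNP (log2 ratio 0.71, exact p = 0.333). Single libraries moved the numbers: there were 68 for HuD without HuD4 and 71 without HuD5, and for DNP 47 without DNP4 and 63 without DNP3. At an equal 5209 reads per animal the mean numbers over 10 draws were 56.2 for HuD and 69.1 for DNP, and the ratio was −0.30. When reads under any IGHV gene were considered, 83 of the 117 and 89 of the 112 still had no read with the other antigen. By IGHV5-20 reads 20 of the HuD-restricted and 11 of the DNP-restricted CDR3s were in 3 or more animals, and under any IGHV gene 10 of the 20 and 8 of the 11 still had no read with the other antigen.

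Of the HuD-restricted CDR3s in 3 or more animals, most reads were held by ARRHYGYTDYFDY (329 reads in HuD4, 60 in HuD5 and 1 in HuD1) and TRGGYFRY (73 in HuD3, 81 in HuD5 and 9 in HuD4). These were mainly clones of other genes, since IGHV5-29 held 68.0% of the 7208 reads of the first and IGHV5-31 81.0% of the 7138 reads of the second, and both were read in 1 DNP animal under another gene. TRGGFYRY, with the same residues in another order, had 55 reads in HuD2, 9 in HuD3 and 2 in HuD5, and was in no DNP animal. ARHGIYNNYGWFAY had 8, 39, 2 and 29 reads in HuD1 to HuD4.

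The DNP-restricted CDR3s in 3 or more animals were led by TTDAAY and by a group of 5-residue CDR3s with proline and then aspartate just before their last residue. ARPDY had 144, 3, 57, 69 and 5 reads from DNP1 to DNP5. ARPDA had 44 reads in DNP1, 2 in DNP3 and 1 in DNP4, AKPDY 21 reads in DNP1 and 2 each in DNP3 and DNP4, and ARPDN 6, 14 and 3 in the same animals. All CDR3s of this form together, a pattern chosen after these values were seen, made up 0 of 64360 IGHV5-20 reads in the HuD animals. Counting error over these pooled reads alone allows a share of up to 0.00466%. In the DNP animals such CDR3s made up 269, 3, 98, 92 and 6 reads from DNP1 to DNP5, 468 reads of 23 distinct CDR3s. They were not particular to IGHV5-20, since under the other IGHV genes the same form had 75 reads in the 5 HuD animals together, against 5872 reads in the 5 DNP animals. ARPDY itself was led by IGHV5-7, with 69.1% of its 3914 reads, and was read in 3 HuD animals under other genes.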

How the data were processed

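The authors merged read pairs with PEAR, collapsed sequences with MIGEC (minimum UMI count 1), adding a short CDR3 stretch to a UMI that was too short by itself, and annotated them with High-VQuest. The sources used here name no versions and no germline set. The deposited table of an animal holds, per collapsed sequence, IMGT-gapped amino acids, the named genes, the productive call and a count of sequenced copies. Each such sequence was 1 read. The deposited copy counts served in an alternative alone, because most reads rest on 1 copy (72.1% to 90.0% of the IGHV5-20 reads of an animal). Productive reads were kept (1615896), and the first IGHV gene named was used.

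Usage was tested in R 4.3.3 with edgeR 4.0.16 (quasi-likelihood test, TMM, 81 genes with at least 100 reads, Benjamini-Hochberg, threshold 0.05), with DESeq2 1.42.0 and limma 3.58.1 on log2(RPM + 10) as alternatives. Other tests were exact permutation tests over 252 sets of 5 animals or 126 divisions into 5 and 5, and exact sign-flip permutation tests over 10 animals (1024 sign patterns, smallest p 0.00195), in Python 3.11.15 with numpy 2.4.6, pandas 2.3.3 and scipy 1.17.1. Figures were drawn with matplotlib 3.10.9. A constant of 1e-09 was added to overlaps, and 0.5 to numbers of shared CDR3s. Positions filled in at least 50% of the reads were compared. The permutation test of group means, the sign-flip test, the Simpson probability and the edgeR fit were checked on simulated data.

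Samples were grouped by the antigen in their labels. The gene, the lists and the tests were chosen with earlier results of these data known. Genes named are IGHV5-20, the 3 IGHV5 genes most like it in usage and those tied with it. CDR3s named are the most abundant of each animal, up to 10 found in most animals and up to 5 per antigen with most reads among those in 3 or more animals of that antigen only. Positions named are the 10 most variable. The CDR3 starts, the CDR2s of a single animal, the CDR3 families and the 5-residue pattern were added after seeing the data.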

Additional observations from a re-analysis of the deposited data

Results flagged for a closer look

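Measures of IGHV5-20 were examined within each antigen for a sample far from the other 4 of its group, and 2 of 24 groups of values had one. Chance alone marks about 1 in 20 such groups. In HuD4 IGHV5-20 took 9.43% of the productive reads, against 5.76% to 6.48% in the other HuD animals, and 69.5% of these reads in HuD4 named further genes. In DNP3 IGHV5-20 was joined to IGHJ1 in 17.9% of its reads, against 5.95% to 8.56% in the other DNP animals. ARWSSSHWYFDF, which leads an IGHJ1 family there, was mainly read under IGHV5-22 (86.95% of its 1901 reads in DNP3).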

How the results depend on the processing

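Over 23 results and 319 alternatives, 284 kept their direction and side of the threshold (for counts, stayed within 1.5 times). Of these, 13 belong to the TT share of IGHV5-20 against other IGHV genes. That comparison was picked after its values were seen, and its alternatives are no support. The number of IGHV genes called (2 of 81) was 14 with DESeq2 (77 genes with an adjusted p), 16 with limma, both mostly higher after HuD, 0 with each distinct CDR3 counted once, 13 with the replicate block (10 higher, 3 lower) and 0 to 30 without 1 animal (0 without HuD1, HuD4 or HuD5, 30 without DNP2). The difference of IGHV5-20 usage (−0.45) was 0.29 with deposited copies, 0.033 with the gene of most reads of a CDR3, −0.84 with reads naming 1 IGHV gene, −0.37 with the replicate block (adjusted p = 0.599 in edgeR) and −0.68 to −0.13 without 1 animal. Same-numbered animals share only a number: their usage deviations correlated by −0.14 to 0.29, and 1 of the 5 HuD animals correlated best with its own number.

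With each distinct CDR3 counted once, IGHV5-20 minus other genes was −0.75 percentage points for IGHJ1 (past the threshold), 1.40 for IGHJ2 and −0.70 for IGHJ3, and −0.16 residues in CDR3 length (past the threshold), and HuD minus DNP was 0.38 for IGHJ1 and −0.53 for IGHJ2. The IGHJ2 difference between antigens was −0.15 with IGHV5-20 named alone and −0.78 to 4.98 without 1 animal. Concentration against IGHV5-22 lost its call with IGHV5-20 named alone (−0.31) and with the gene of most reads (−0.17), and HuD against DNP was −0.042 to 0.21 without 1 animal. Replaced residues, HuD minus DNP, were −1.34 to −0.88 without 1 animal. The log2 ratio of antigen-restricted CDR3s was −0.17 named alone, −0.53 with the gene of most reads, −0.30 at equal reads, 0.71 with CDR3s of at least 2 reads and −0.35 to 0.57 without 1 animal, relative to its mean over all sets. The causes of these changes were not tested. Positions called between antigens stayed at 0, with at most 10 animals to detect them.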
